A study of Mus musculus with 12 samples.

Results

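The mRNAs of 9 enzymes of the cytosolic folate cycle and the methionine cycle were followed in cultured mouse neural stem cells (NSCs): Mthfd1, Shmt1, Aldh1l1, Mthfs, Mtr, Mtrr, Mat2a, Mat2b and Ahcy. They were taken by gene symbol, and all 9 were found among the 43432 genes listed and had counts in 12 of 12 libraries. The NSCs came from the subventricular zone (SVZ) of wild-type C57BL/6 males 6 to 8 weeks old and were grown for 4 days with 1.5 µM folic acid (LF), 10 µM (MF, the amount usual in culture medium) or 80 µM (HF). For each dose, polysome mRNA (the sucrose gradient fractions of mRNA carrying more than 3 ribosomes) and total mRNA were sequenced in 2 replicates. The study calls them biological replicates without stating whether each came from its own animal or culture, so p-values measure the spread between these libraries.

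Folate carries single carbon units. SHMT1 moves the carbon of serine onto tetrahydrofolate, the trifunctional MTHFD1 interconverts the carbon-loaded forms, and ALDH1L1 burns the carbon of 10-formyltetrahydrofolate off to carbon dioxide. MTHFS returns 5-formyltetrahydrofolate to the active pool. The folate and methionine cycles meet at methionine synthase (MTR), which uses cobalamin to pass a methyl group from 5-methyltetrahydrofolate to homocysteine, and MTRR reactivates MTR when its cobalamin becomes oxidised. MAT2A, with its regulatory subunit MAT2B, makes S-adenosylmethionine (SAM), the methyl donor of RNA, DNA and histone methylation, and AHCY removes the S-adenosylhomocysteine that each methyl transfer leaves behind.

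The libraries held 24193468 to 28170296 expected counts for polysome mRNA and 20506797 to 23593252 for total mRNA. Among the members the counts in a library ran between 5509 and 7847 for Mat2a, and between 65 and 157 for Mthfs. Polysome LF replicate 2 stood apart, at 77.2 on a first principal component that held 53.4% of the variance of the polysome libraries, while the other 5 lay between -32.7 and -3.3. The NSC markers Nes, Sox2, Vim, Hes5 and Fabp7 were above 1 TPM (transcript level per gene length, scaled to a fixed sum per library) in all libraries, while the astrocyte markers were mixed: in total mRNA Gfap, Aqp4, S100b and Gjb6 were under 1 TPM in all libraries, Slc1a2 lay between 5.78 and 10.45 TPM, Gja1 between 140 and 149 TPM and Aldoc between 260.0 and 311 TPM. In such bulk samples, fewer cells of a type and less RNA per cell cannot be told apart.

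Stretches of sequence of 2 kinds bear on how these mRNAs are read and regulated. The first is the context of the start codon, because translation is measured here. Each line gives 6 bases before the ATG, the ATG and the base after it, in the principal GENCODE M21 transcript, 5′ to 3′, and the capitals mark the base at position -3, the ATG and the base at +4 (the A of ATG counts as +1).
Mthfd1: aagGccATGG
Shmt1: agtGcaATGG
Aldh1l1: gttGccATGA
Mthfs: ccaGgaATGG
Mtr: ggaAagATGA
Mtrr: gagGtgATGA
Mat2a: gccGccATGA
Mat2b: gcgGgcATGG
Ahcy: gccAgcATGT
All 9 had A or G at position -3, as did 84.38% of the 12974 coding genes tested. A further 13.16% had C or T, and the context of the rest was not read. G at position +4 was present in Mthfd1, Shmt1, Mthfs and Mat2b, and absent in the other 5. Of the coding genes tested, 45.06% had G at +4 together with A or G at -3.

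The second kind of sequence lies downstream of the Mat2a stop codon, where the methyltransferase METTL16 is known to bind hairpins and to link Mat2a splicing and stability to the SAM supply. The motifs TACAGAGAA and TACAGAAAA, searched on the transcript strand, occurred 6 times in the Mat2a 3′ region of 1494 bases. At least 1 copy of either motif was found in 4.06% of the 12745 tested coding genes with a 3′ region of at least 20 bases, and Mat2a alone had 6 or more. The sites lie on chromosome 6 of mm10, minus strand, and are printed 5′ to 3′ with 8 bases on each side and the motif in capitals.
Site 1, chr6:72434237-72434261: gcgtaggtTACAGAGAAgccttcaa
Site 2, chr6:72433453-72433477: ttgtgataTACAGAGAAgtcacagg
Site 3, chr6:72433274-72433298: ggtgtagcTACAGAGAAaccagctt
Site 4, chr6:72433159-72433183: ggcgtaagTACAGAGAAgccatcac
Site 5, chr6:72433048-72433072: aggtgtccTACAGAAAAaccttggg
Site 6, chr6:72432940-72432964: tggtgtggTACAGAGAAgccagctt
All of the sites hold TACAGAGAA except site 5, which holds TACAGAAAA. A match is a description of these letters and not a measured binding site.

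The first question was how abundant the 9 mRNAs were, per length, in the polysomes and in the cells as a whole. Mat2a, Ahcy and Mat2b, all of the methionine cycle, had the highest means in both, although in total mRNA Mthfd1 was about level with Mat2b. In polysome mRNA the order of mean levels was Mat2a at 142 ± 26.9 TPM, Ahcy at 131 ± 20.3, Mat2b at 82.7 ± 15.9, Mthfd1 at 46.3 ± 11.8, Shmt1 at 44.0 ± 4.80, Aldh1l1 at 17.9 ± 6.97, Mtrr at 13.6 ± 1.34, Mthfs at 13.1 ± 1.37 and Mtr at 6.80 ± 1.56 (SD, n = 6 libraries over the 3 doses). In total mRNA it was Mat2a at 191 ± 7.94 TPM, Ahcy at 133 ± 3.22, Mat2b at 76.4 ± 3.41, Mthfd1 at 74.8 ± 1.49, Aldh1l1 at 40.5 ± 8.94, Shmt1 at 39.9 ± 2.15, Mtr at 19.1 ± 0.846, Mtrr at 11.3 ± 0.609 and Mthfs at 10.8 ± 3.87 (SD, n = 6).

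Neighbours in these orders were not all apart. In polysome mRNA the ranges of Mat2a and Ahcy overlapped, as did those of Ahcy and Mat2b, those of Mthfd1 and Shmt1, and those of Aldh1l1, Mtrr and Mthfs. In total mRNA the pairs Mat2b and Mthfd1, Aldh1l1 and Shmt1, and Mtrr and Mthfs overlapped. The ranges of the remaining neighbours were apart, and the plot of levels by library shows all values.

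**Figure D1:**
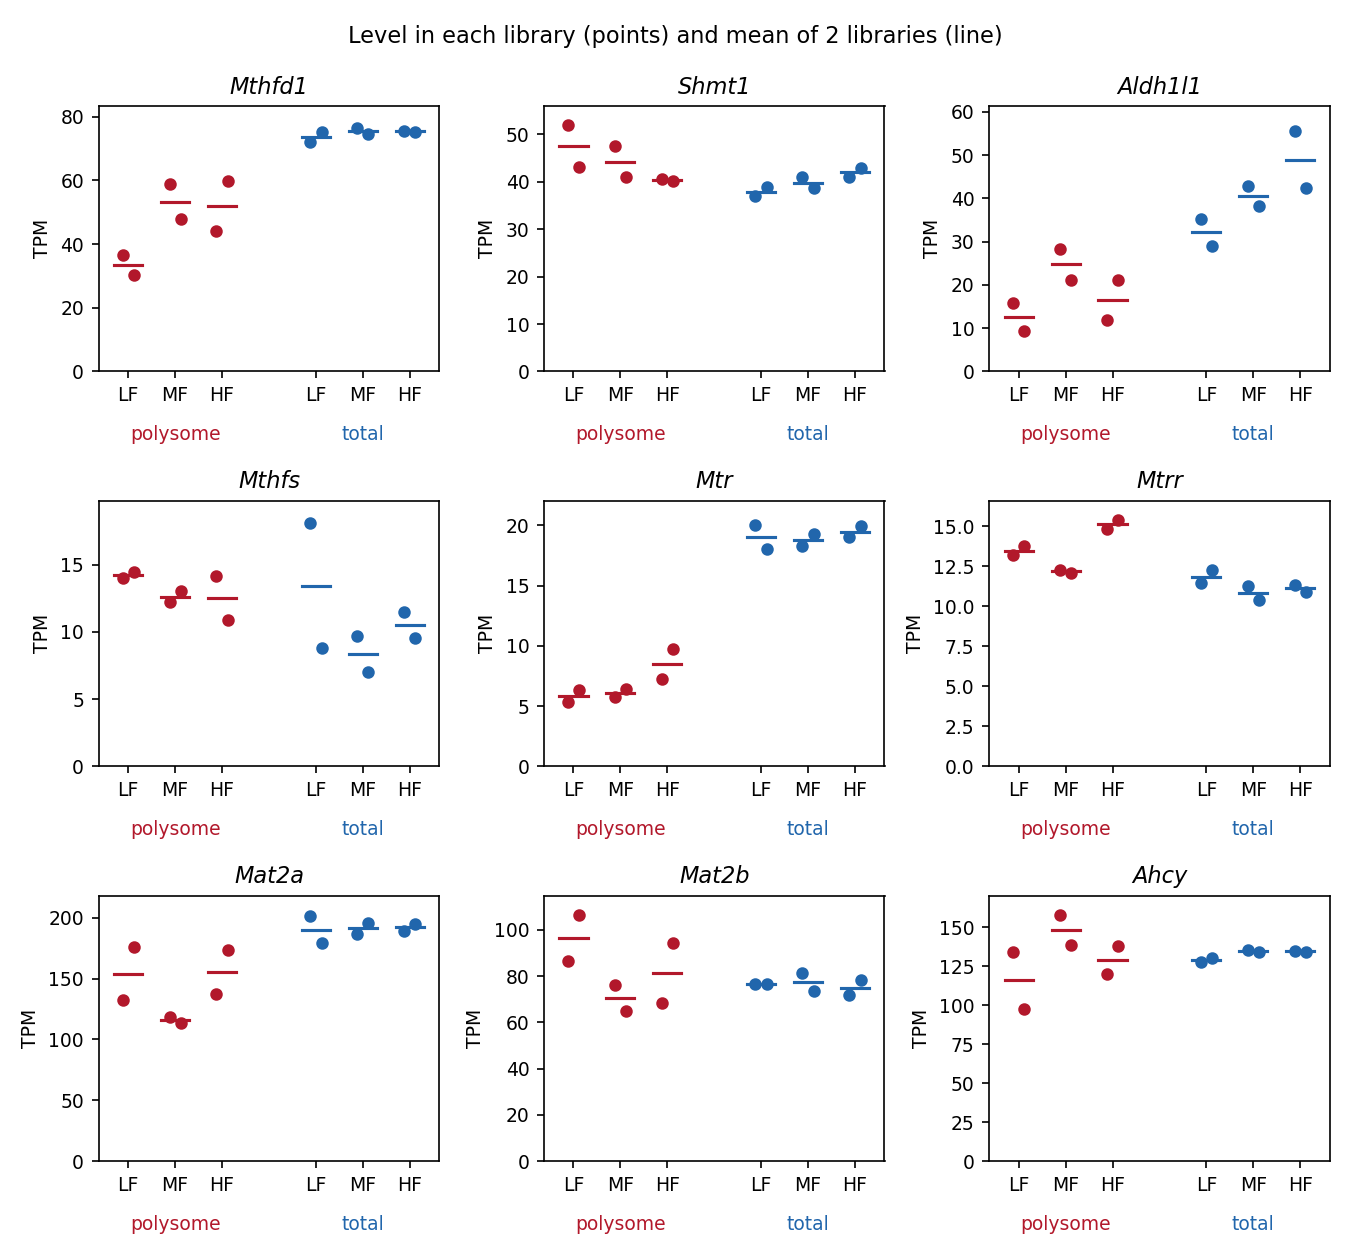
Level of each enzyme mRNA in TPM (vertical axis, from 0) in the polysome libraries (red, left) and the total mRNA libraries (blue, right) at LF, MF and HF; points are the 2 libraries of a group and lines their mean. Mtr lies between 5.34 and 9.71 TPM in polysomes, against 17.99 to 20.04 TPM in total mRNA, and the Aldh1l1 means in total mRNA are 32.2, 40.5 and 49.0 TPM at LF, MF and HF.

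The second question was which of these mRNAs were enriched on polysomes or depleted from them. Over the 3 doses, Mtr, Aldh1l1 and Mthfd1 were lower in polysome than in total mRNA, by 2.31, 2.22 and 1.34 times. Mtrr, Mthfs, Mat2b and Ahcy were higher, by 1.48, 1.44, 1.38 and 1.21 times, and Shmt1 and Mat2a were not called. Here, called means that edgeR's quasi-likelihood test on scaled counts gave a fold above 1.2 with a Benjamini-Hochberg adjusted p, over all genes, below 0.05. A fold is relative to the average gene of the libraries, and TPM levels, which are relative to the summed level of all genes, gave lower ratios for all 9. In TPM the log2 ratio of polysome to total mRNA means was -0.02 for Ahcy, 0.12 for Mat2b, 0.27 for Mtrr, 0.29 for Mthfs, 0.14 for Shmt1, -0.43 for Mat2a, -0.69 for Mthfd1, -1.18 for Aldh1l1 and -1.49 for Mtr, so that Ahcy was even in TPM although called higher in scaled counts. So 7 of 9 enzymes were called, 4 higher and 3 lower, where 71% of the 14421 genes tested were called, 32.7% higher and 38.4% lower. The median log2 difference was 0.25 over the 9 enzymes and -0.09 over all genes.

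Averaged over the 3 doses, Mtr and Aldh1l1 lay lowest among the 9, and their values differed by less than 1 SE. Mtr had 5.34 and 6.31 TPM in polysome LF, 5.78 and 6.42 in polysome MF, and 7.25 and 9.71 in polysome HF. In total mRNA it had 20.0 and 17.99 TPM at LF, 18.3 and 19.3 at MF, and 19.0 and 20.0 at HF. All 6 polysome libraries were below all 6 total mRNA libraries. The log2 difference over the 3 doses was -1.21 ± 0.100 (SE, edgeR adjusted p 1.51e-06).

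Mtrr, the partner that reactivates MTR, went the other way. Polysome LF libraries held 13.2 and 13.7 TPM, polysome MF libraries 12.3 and 12.1, and polysome HF libraries 14.9 and 15.4. Total mRNA held 11.5 and 12.2 TPM at LF, 11.3 and 10.4 at MF, and 11.4 and 10.9 at HF. The scaled counts of the fractions did not overlap, at 29.6 to 38.7 CPM (counts scaled for library size) in polysome libraries and 21.2 to 25.3 CPM in total mRNA libraries. The log2 difference was 0.57 ± 0.077 (edgeR adjusted p 6.22e-05). Within a library the ratio of Mtr to Mtrr in TPM was thus 0.40 to 0.63 in the 6 polysome libraries, against 1.47 to 1.85 in the 6 total mRNA libraries, so that the more abundant of the partners was Mtrr in every polysome library and Mtr in every total mRNA library.

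Aldh1l1 was the other strongly depleted mRNA. It had 15.9 and 9.31 TPM in polysome LF, 28.2 and 21.3 in polysome MF, and 11.8 and 21.2 in polysome HF. In total mRNA it had 35.3 and 29.0 TPM at LF, 42.8 and 38.1 at MF, and 55.6 and 42.4 at HF. No polysome library reached the lowest total mRNA library. The log2 difference over the 3 doses was -1.15 ± 0.149 (edgeR adjusted p 4.37e-05).

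Mthfd1, which shares part of its chemistry with ALDH1L1 through 10-formyltetrahydrofolate, was depleted by a smaller fold. Polysome libraries had 36.5 and 30.3 TPM at LF, 58.7 and 48.0 at MF, and 44.2 and 59.9 at HF. Total mRNA libraries had 72.0 and 75.1 TPM at LF, 76.3 and 74.6 at MF, and 75.7 and 75.2 at HF, a spread of only 1.99% (coefficient of variation, n = 6). In TPM all polysome libraries were below all total mRNA libraries, but in scaled counts the fractions overlapped, at 69.1 to 134 CPM in polysomes and 129 to 138 CPM in total mRNA. The log2 difference was -0.42 ± 0.096 (edgeR adjusted p 0.00233).

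Shmt1, the serine-using enzyme, was near even. It had 52.0 and 43.1 TPM in polysome LF, 47.6 and 40.9 in polysome MF, and 40.5 and 40.1 in polysome HF, against 36.9 and 38.8, 41.0 and 38.6, and 41.1 and 42.8 TPM in total mRNA at LF, MF and HF. In TPM the polysome libraries lay above the total mRNA libraries at LF, overlapped them at MF and lay below them at HF, while in scaled counts they lay above at each dose, by little. The log2 difference was 0.25 ± 0.090, with an edgeR adjusted p of 0.0298 but a fold of 1.19, just inside the limit of 1.2. An exon of Smcr8 lies on the opposite strand of Shmt1, at 9.47 to 18.6 TPM, and since it is not stated whether counting used the strand, reads of the pair may not be separable.

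Mthfs was the least certain member. It had 14.0 and 14.5 TPM in polysome LF, 12.2 and 13.0 in polysome MF, and 14.2 and 10.9 in polysome HF, and total mRNA libraries had 18.1 and 8.79 TPM at LF, 9.69 and 6.99 at MF, and 11.5 and 9.56 at HF. Its near-identical copy Mthfsl matches it at 99.4% of 801 aligned bases, and copies took 53.0% to 68.1% of the counts of the set in each library. The log2 difference was 0.53 ± 0.147 (edgeR adjusted p 0.00784) for Mthfs, and 0.47 ± 0.091 (edgeR adjusted p 0.000838) for the summed counts of Mthfs and Mthfsl.

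Of the 2 subunits that make SAM, Mat2b was called and Mat2a was not, and the difference between them was not tested. Mat2a, the catalytic subunit, had 132 and 176 TPM in polysome LF, 119 and 114 in polysome MF, and 138 and 174 in polysome HF, against 202 and 179, 187 and 196, and 190 and 195 TPM in total mRNA at LF, MF and HF. Mat2b, the regulatory subunit, had 86.6 and 106 TPM in polysome LF, 76.2 and 65.0 in polysome MF, and 68.2 and 94.2 in polysome HF, against 76.7 and 76.5, 81.5 and 73.4, and 71.9 and 78.1 TPM in total mRNA at LF, MF and HF. In scaled counts the fractions overlapped for Mat2a and did not overlap for Mat2b. The log2 difference was 0.47 ± 0.102 for Mat2b (edgeR adjusted p 0.00185), while that of Mat2a was -0.14, with a 95% interval between -0.36 and 0.08 (edgeR adjusted p 0.216). Mat2a was 1.53 to 2.02 times as abundant as Mat2b in polysome libraries and 2.29 to 2.67 times in total mRNA libraries, in TPM.

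Ahcy had 134 and 97.5 TPM in polysome LF, 157 and 138 in polysome MF, and 120.0 and 138 in polysome HF. Total mRNA had 127 and 130 TPM at LF, 135 and 134 at MF, and 135 and 134 at HF. The fractions overlapped, and the lowest library was polysome LF replicate 2. The log2 difference of 0.27 ± 0.086 (edgeR adjusted p 0.0143; fold 1.21) lay close to the fold limit, and without polysome LF replicate 1, polysome MF replicate 1 or polysome HF replicate 2 it was between 0.24 and 0.26, a fold under 1.2, and no longer called.

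At single doses the calls were fewer. At LF, 5 of 9 enzymes were called (53.6% of all genes), Mtrr and Mat2b higher (25% of all genes higher) and Mthfd1, Aldh1l1 and Mtr lower (28.5% lower). At MF, 3 of 9 were called (55.2% of all genes), Mtrr and Ahcy higher (26% higher) and Mtr lower (29.3% lower). At HF, 4 of 9 were called (56.4% of all genes), Mtrr and Mat2b higher (25.7% higher) and Aldh1l1 and Mtr lower (30.7% lower). The Aldh1l1 log2 differences were -1.30 at LF, -0.63 at MF (edgeR adjusted p 0.0555, not called) and -1.52 at HF, the lowest of the 9 at that dose. Mtr and Mtrr were called at each of the 3 doses, with log2 differences of -1.42, -1.31 and -0.89 for Mtr and 0.47, 0.48 and 0.75 for Mtrr at LF, MF and HF. The count at MF rose without either polysome LF replicate, and fell without total MF replicate 2 or polysome MF replicate 1. The calls over all genes at MF moved the same way. The Mat2b call at HF was marginal, with a log2 difference of 0.45 (edgeR adjusted p 0.0494), and 0.22 without polysome HF replicate 2. It was made in 7 of 17 alternative settings, which are listed below. Mtr was called in 17 of the 17 at each dose, and Mtrr in 15 at LF, 15 at MF and 17 at HF. Mat2b at LF and Ahcy at MF were each called in 14 of the 17.

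**Figure D2:**
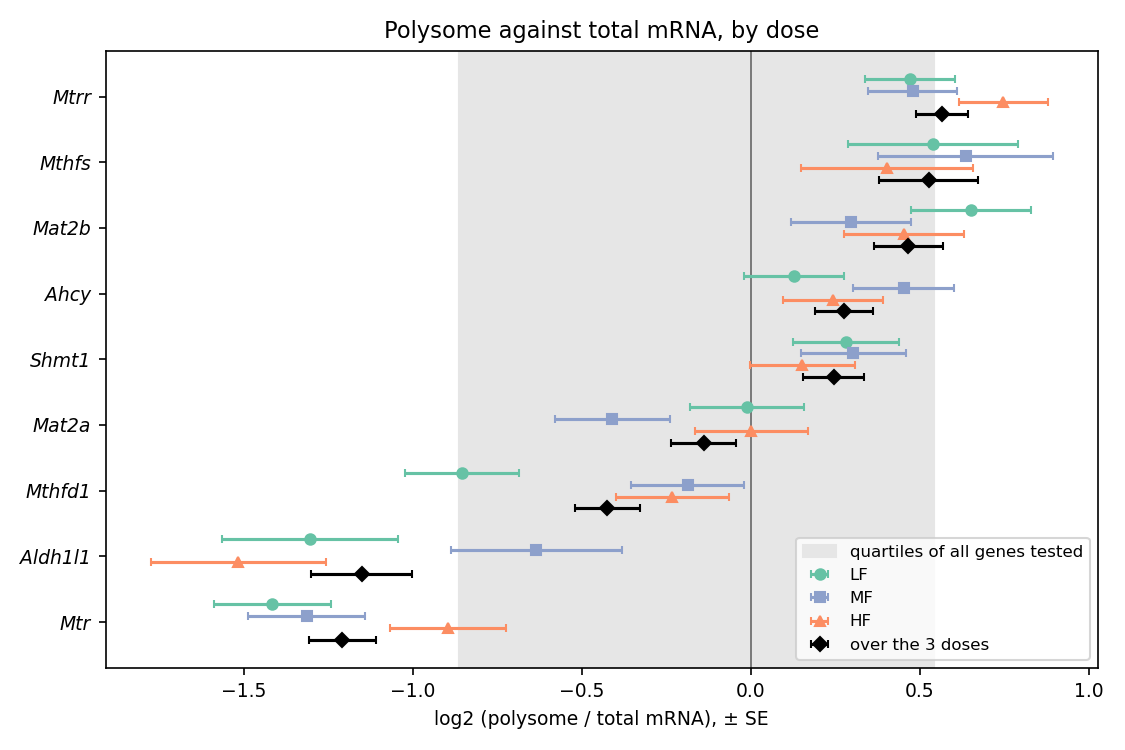
Log2 difference of polysome over total mRNA (horizontal axis, ± SE) for each enzyme at LF, MF and HF (n = 2 libraries per fraction) and over the 3 doses (n = 6 per fraction); the grey band spans the quartiles of all genes tested, -0.86 to 0.54. Mtr and Aldh1l1 lie below the band over the 3 doses, at -1.21 and -1.15, Mtrr lies just above it at 0.57, and the other 6 enzymes lie inside it.

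The position of the members followed their coding length in part. Over 13004 protein-coding genes the log2 difference fell with coding length (Spearman's rho across genes -0.454, where genes are not independent replicates and share libraries), and over the 9 enzymes rho was -0.683, given as a description. The 2601 genes with the longest coding sequences, 2580 bases or more, had a median log2 difference of -0.81, and they hold Mtr (3759 bases), Mthfd1 (2805 bases) and Aldh1l1 (2706 bases), the 3 depleted members. Mtr and Aldh1l1 were below that median, and Mthfd1, at -0.42, above it. Mtrr, with 2088 coding bases, was the member farthest above genes of like length: the 2601 genes between 1684 and 2580 bases had a median of -0.25 and quartiles of -0.83 and 0.25. The part of coding length in each member's difference was not tested.

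**Figure D3:**
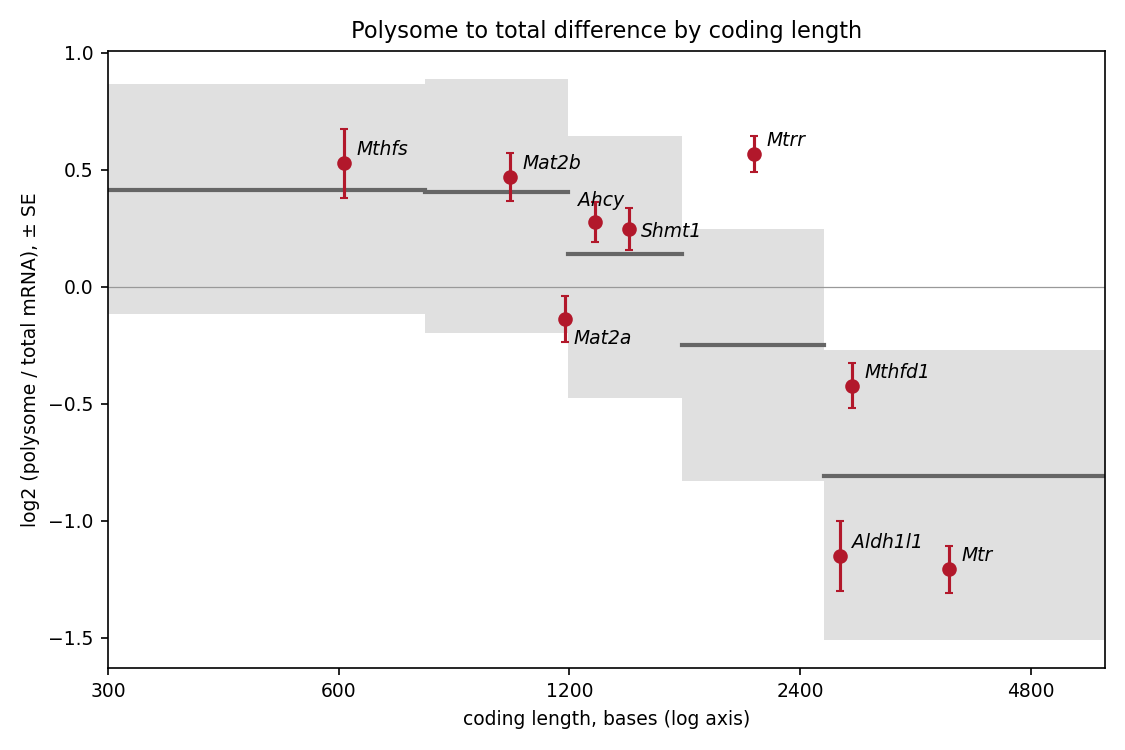
Log2 difference of polysome over total mRNA over the 3 doses (vertical axis; red points with ± SE) against coding length in bases (log axis, cut at both ends) for the 9 enzymes. Grey lines are medians and grey boxes the span between quartiles of protein-coding genes in 5 classes of coding length; Mtrr lies above the box of its class, and the other enzymes lie inside theirs.

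Upstream ATGs, which can lower initiation at the main start, were found in the 3 members that were highest in polysomes and in no other. Mtr, Aldh1l1 and Mthfd1, the depleted ones, had 0 upstream ATGs in leaders of 239, 116 and 206 bases, and Mtrr, Mat2b and Mthfs, at 0.57, 0.47 and 0.53, had 1 each, while Ahcy, Shmt1 and Mat2a had 0. This is the opposite order to that over all genes, and it is given as a description of 9 genes. Over the 12974 coding genes the median log2 difference was 0.13 for the 6460 genes without an upstream ATG and -0.16 for the 6514 genes with at least 1. Of the start contexts printed above, G at +4 was present in Mthfd1, among the depleted enzymes, and in Mthfs and Mat2b, among the enriched ones.

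The third question was whether the folic acid dose changed these mRNAs. In total mRNA no member was called, neither for LF against MF (0.00719% of the 13912 genes tested were called), nor for HF against MF (0.0863%), nor for HF against LF (1.79%). These shares moved with single libraries: LF against MF had 1 gene called in all, 70 without total LF replicate 1 and between 1 and 9 without any 1 of the others, and HF against MF had 12, but 0 without total MF replicate 1, total MF replicate 2 or total HF replicate 1, 34 and 40 without total LF replicates 2 and 1, and 97 without total HF replicate 2. HF against LF had 249, and between 81 (without total HF replicate 1) and 426 (without total LF replicate 1). The comparisons of LF and of HF with MF share the MF libraries. At an unadjusted p under 0.05, 0 members passed for LF against MF, 0 for HF against MF and 1, Aldh1l1, for HF against LF. Of all genes, 6.27%, 6.98% and 12.6% passed in the same order. DESeq2 called 0, 0 and 1 member in that order, and 2, 17 and 173 of all genes. The median log2 change over the 9 enzymes was 0.00 for LF against MF, 0.04 for HF against MF and 0.03 for HF against LF, beside 0.00 over all genes in each.

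Aldh1l1 was the member with the largest total mRNA change between HF and LF, and it is the enzyme that removes carbon units from the folate pool. Its total mRNA level averaged 32.2 ± 4.42 TPM at LF, 40.5 ± 3.32 at MF and 49.0 ± 9.33 at HF (SD, n = 2 each). Both LF libraries were below both MF and both HF libraries, and HF and MF overlapped in TPM. In scaled counts the doses did not overlap, at 50.3 to 59.3 CPM at LF, 65.4 to 71.5 CPM at MF and 72.6 to 93.3 CPM at HF. The log2 change was 0.60 ± 0.145 for HF against LF (1.52-fold, edgeR adjusted p 0.168), -0.33 ± 0.148 for LF against MF (edgeR adjusted p 0.808) and 0.27 ± 0.144 for HF against MF (edgeR adjusted p 0.815). The call depended on the method: DESeq2 gave an adjusted p of 0.0436 for HF against LF, and edgeR without a filter on low counts one of 2.87e-11. The log2 change was 0.60 in both, with an SE of 0.175 and 0.068, so the methods differed in the SE and not in the change. Both used the same 2 libraries per dose, so the lower p is not stronger evidence of a change. Without total HF replicate 1 the change was 0.42 and without total HF replicate 2 it was 0.76, both called. Without total HF replicate 2, HF against MF was called too, at 0.43 (edgeR adjusted p 0.0169).

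Aldh1l1 is also used as a marker of astrocytes, and other markers moved in these libraries. The summed level of the 5 NSC markers was 6340 to 6392 TPM at LF, 6714 to 7083 at MF and 7469 to 8087 at HF in total mRNA. Vim and Fabp7 held most of that sum. Fabp7 was called for HF against LF, at 0.43 (edgeR adjusted p 0.00121), and 4 of the 5 were above 0, while Hes5 had -0.10. Sox2 had 114.57 and 102.18 TPM at LF and 114.33 and 106.25 at HF. In polysome mRNA the sum was instead 8541 to 8566 TPM at LF, 6905 to 7161 at MF and 6991 to 7398 at HF. In total mRNA the summed level of 7 other astrocyte markers (Gfap, Aqp4, S100b, Aldoc, Slc1a2, Gja1 and Gjb6) was 459 to 462 TPM at LF, 446 to 459 at MF and 416 to 437 at HF, a sum held mostly by Aldoc and Gja1. For HF against LF, 1 of the 5 astrocyte markers tested was called, Slc1a2 at 0.36 (edgeR adjusted p 0.0237). In scaled counts this was the direction of Aldh1l1, while Aldoc had -0.16 (edgeR adjusted p 0.126) and Gja1 0.00. In TPM Slc1a2 did not rise, with 10.45 and 6.68 at LF and 8.39 and 7.15 at HF. In total mRNA, mural and mesenchymal markers summed to 74.99 to 85.8 TPM at LF, 71.5 to 76.8 at MF and 51.0 to 60.3 at HF. Acta2 and Pdgfrb held most of that sum, and Rgs5, Col1a1 and Des were under 1 TPM. Col3a1 overlapped between LF and HF in TPM, and had -0.23 in scaled counts for HF against LF (edgeR adjusted p 0.378). In polysome mRNA the sum was instead highest at HF, with 208 to 311 TPM at LF, 247 to 267 at MF and 377 to 450 at HF. The part of these shifts in the Aldh1l1 values was not tested.

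Most of the other total mRNAs had narrow intervals. Mat2a, whose mRNA is known to accumulate when SAM is short, had a log2 change of 0.00 for LF against MF, with a 95% interval between -0.10 and 0.11, and of 0.02 for HF against MF, between -0.09 and 0.12. Ahcy had -0.05 for LF against MF (between -0.15 and 0.05) and 0.01 for HF against MF (between -0.09 and 0.11). Mthfd1 had -0.02 (between -0.12 and 0.08) and 0.01 (between -0.09 and 0.12) for the same comparisons. For Mthfs the intervals were wide, between -0.14 and 0.81 for LF against MF and between -0.23 and 0.73 for HF against MF. Changes within these intervals could not be told from 0.

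In polysome mRNA no member was called either. For LF against MF 0.0223% of the 13433 genes tested were called, for HF against MF 0% and for HF against LF 0.0149%. These shares depended on the libraries and the tool: LF against MF had 3 genes called in all, 942 without polysome LF replicate 2, 6987 without polysome LF replicate 1 and 627 with DESeq2. HF against MF had 0, and 783 without polysome LF replicate 2, 709 without polysome LF replicate 1 and 707 with only its own libraries in the fit. HF against LF had 2, and 2117 without polysome LF replicate 2, 5438 without polysome LF replicate 1 and 363 with DESeq2. At an unadjusted p under 0.05, 2 members passed for LF against MF (Mthfd1 and Aldh1l1), 0 for HF against MF and 1 for HF against LF (Mthfd1). Of all genes, 17.3%, 3.37% and 14% passed in the same order, so the members were near the share of all genes. DESeq2 called 0 of the 9 in each comparison. Over all genes, the HF against MF comparison without a call had 453 genes at an unadjusted p under 0.05, and DESeq2 called 24. The median log2 change over the 9 enzymes was -0.08 for LF against MF, 0.02 for HF against MF and 0.19 for HF against LF, beside 0.01, 0.00 and 0.01 over all genes. The spread between polysome replicates was wide, with a common biological coefficient of variation of 0.231, against 0.0433 between total mRNA replicates. The LF pair differed most. Its chi-square per degree of freedom over genes was 143.06, beside 15.51 for the MF pair and 23.69 for the HF pair. In total mRNA the values were 4.98, 2.78 and 3.24 at LF, MF and HF.

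Mthfd1 polysome mRNA averaged 33.4 ± 4.37 TPM at LF, 53.4 ± 7.58 at MF and 52.0 ± 11.1 at HF (SD, n = 2 each). Both LF libraries were below both MF and both HF libraries, the values being those given above. The log2 change was -0.70 ± 0.230 for LF against MF (edgeR adjusted p 0.219) and 0.67 ± 0.230 for HF against LF (edgeR adjusted p 0.28). Without polysome LF replicate 2, the library that stood apart, it was -0.60 for LF against MF (edgeR adjusted p 0.0839), and without polysome LF replicate 1 it was -0.78 (edgeR adjusted p 0.00534).

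Aldh1l1 polysome mRNA averaged 12.6 ± 4.68 TPM at LF, 24.7 ± 4.92 at MF and 16.5 ± 6.61 at HF. Both LF libraries were below both MF libraries, and the HF libraries overlapped the LF libraries. The log2 change was -0.999 ± 0.320 for LF against MF (edgeR adjusted p 0.209), -0.60 ± 0.318 for HF against MF (edgeR adjusted p 0.948) and 0.39 ± 0.319 for HF against LF (edgeR adjusted p 0.629). Polysome LF replicate 2 had the lowest value of all, and without it the change for LF against MF was -0.66 (edgeR adjusted p 0.0693). Without polysome LF replicate 1 it was -1.42 (edgeR adjusted p 0.000122). The change for HF against MF had an edgeR adjusted p of 0.0461 without polysome LF replicate 2.

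The intervals of the other polysome changes named here included 0. For LF against MF, Mat2a had a log2 change of 0.39 (95% interval between -0.11 and 0.90), Mat2b 0.40 (between -0.15 and 0.94) and Ahcy -0.38 (between -0.86 and 0.10). Each of these was moved by polysome LF replicate 2, without which the values were 0.14, 0.22 and -0.19. Without polysome LF replicate 1, the 3 enzymes were called, at 0.64, 0.58 and -0.57, and the LF group was then the library that stood apart. For HF against MF, Mtr had 0.49 (between -0.11 and 1.09) and Mat2a 0.44 (between -0.07 and 0.94). Mtr for HF against LF was 0.57 (edgeR adjusted p 0.388), and 0.72 without polysome LF replicate 2 (edgeR adjusted p 0.0336).

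**Figure D4:**
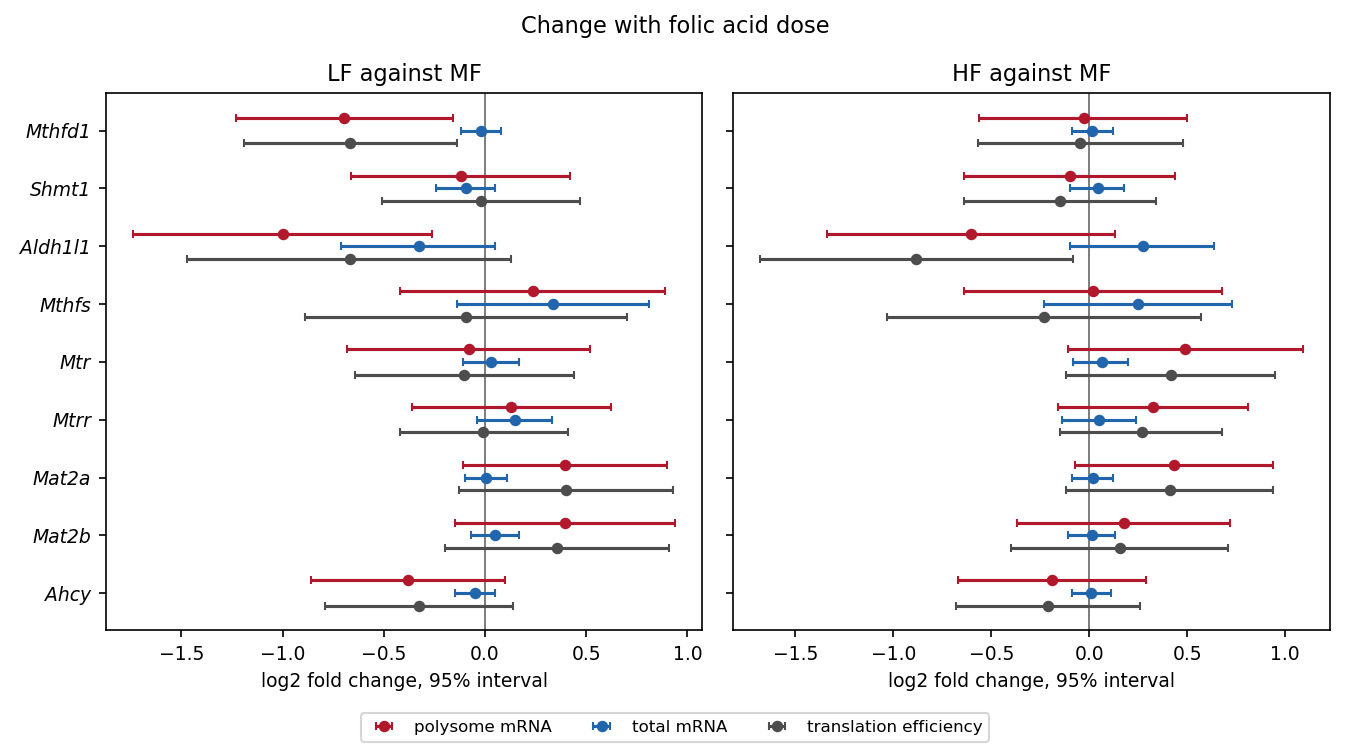
Log2 fold change (horizontal axis, with 95% intervals) of polysome mRNA (red), total mRNA (blue) and translation efficiency (grey) for LF against MF (left) and HF against MF (right), with n = 2 libraries per group. The widest total mRNA interval is that of Mthfs, polysome intervals are wider than those of total mRNA for all 9 enzymes, and no change shown was called.

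Translation efficiency, the change of polysome mRNA beyond that of total mRNA, was tested as an interaction over the 12 libraries. No member was called for LF against MF (0.236% of the 14421 genes tested were called), HF against MF (0%) or HF against LF (0.0971%). Here too the shares moved: LF against MF had 34 genes called in all, but 1001 without polysome LF replicate 2 and 588 with DESeq2, and between 2 and 9 without any 1 library other than the polysome LF replicates. HF against MF had 0, and 443 without polysome LF replicate 2, 428 without polysome LF replicate 1 and 217 with only its own libraries in the fit. HF against LF had 14, but 2550 without polysome LF replicate 2, 5576 without polysome LF replicate 1, 670 with DESeq2, and between 2 and 6 without any 1 of the other libraries. At an unadjusted p under 0.05, 1 member passed in each: Mthfd1 for LF against MF, Aldh1l1 for HF against MF and Mthfd1 for HF against LF. Of all genes, 15.8%, 4.15% and 14.7% passed in the same order. DESeq2 called 0 of the 9 in each comparison. Over all genes, HF against MF had 599 genes at an unadjusted p under 0.05, and DESeq2 called 29. Mthfd1 had a log2 change of -0.67 ± 0.236 for LF against MF (edgeR adjusted p 0.232) and 0.62 ± 0.236 for HF against LF (edgeR adjusted p 0.26), while its total mRNA was even over the doses. Aldh1l1 had -0.67 ± 0.361 for LF against MF (edgeR adjusted p 0.39) and -0.88 ± 0.360 for HF against MF (edgeR adjusted p 0.982). For Aldh1l1 at HF, polysome mRNA was thus below and total mRNA above MF, and neither difference was called. Without polysome LF replicate 2, Mtr was called for HF against LF, at 0.69 ± 0.195 (edgeR adjusted p 0.0268). Without polysome LF replicate 1, Mthfd1, Aldh1l1, Mat2a, Mat2b and Ahcy were called for LF against MF, at -0.77, -1.10, 0.62, 0.52 and -0.53, in a fit that called 6853 of all genes and in which the LF polysome group was the library that stood apart. Without that library, polysome LF replicate 2, the same enzymes had -0.58, -0.34, 0.13, 0.17 and -0.15, and none was called.

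Each member was then set beside the gene whose scaled log2 level was most like its own, by Pearson's r over the 12 libraries among 12228 genes. The nearest were Ift172 for Mthfd1 (r = 0.988), Actr1a for Shmt1 (0.956), Ampd3 for Aldh1l1 (0.992), Pdss1 for Mthfs (0.929), Ncoa1 for Mtr (0.993), Hdac8 for Mtrr (0.983), Tardbp for Mat2a (0.955), Med17 for Mat2b (0.983) and Urod for Ahcy (0.988). These values share libraries, which include both fractions. Within the 6 polysome libraries, the pairs of members closest to each other were Aldh1l1 and Ahcy (r = 0.975) and Shmt1 and Ahcy (r = 0.854), and the most opposed were Mthfd1 and Mthfs (r = -0.902), given as descriptions over libraries that include the one that stood apart.

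Neighbouring enzymes of the pathway were read from lists. Of 12 other cytosolic folate and methionine cycle genes reported here, 8 were tested, and Bhmt, Bhmt2, Gnmt and Mat1a, enzymes best known from liver, had too few counts. Over the 3 doses 3 of the 8 were higher in polysomes and 0 were lower, beside 32.7% of all genes higher and 38.4% lower, so the share of higher genes was near that of all genes. Atic, an enzyme of purine synthesis that takes carbon from 10-formyltetrahydrofolate, was higher by 2.07 times, Adk by 1.82 and Tyms, the thymidylate synthase, by 1.47. The lowest of the 8 was Fpgs, at -0.18 (edgeR adjusted p 0.411). The median log2 difference was 0.14. None of the 8 was called in a dose comparison of total mRNA, polysome mRNA or translation efficiency.

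The mitochondrial folate enzymes, some of which hold the matching reactions in the other compartment, had 5 of 10 members higher in polysomes and 1, Gldc, lower, with a median of 0.73, beside 32.7% of all genes higher, 38.4% lower and a median of -0.09. Their log2 differences were 3.96 ± 0.106 for Mthfd2, 3.10 ± 0.152 for Aldh1l2 and 2.96 ± 0.093 for Shmt2, beside -0.42 for Mthfd1, -1.15 for Aldh1l1 and 0.25 for Shmt1, their cytosolic counterparts. Mthfd1l, the mitochondrial synthetase of formyltetrahydrofolate, was called for HF against LF in total mRNA, with a log2 change of 0.35 ± 0.083 (edgeR adjusted p 0.0274). It was the only gene reported from these 4 lists that was called in a dose comparison.

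Genes that deliver and prepare cobalamin, the cofactor of MTR, were higher in polysomes in 5 of 6 cases (32.7% of all genes were higher), with a median of 0.81 and values up to 1.23 ± 0.071 for Mmadhc. Mmachc was at 0.12 (edgeR adjusted p 0.252). Of the methionine salvage genes, which rebuild methionine from methylthioadenosine, 4 of 5 were higher (beside the same 32.7%), with a median of 0.76, up to 1.34 ± 0.087 for Apip, and Mtap was at 0.04 (edgeR adjusted p 0.643). No gene of either list was lower in polysomes or called in a dose comparison, while Mtr was the lowest of the genes reported from the 5 lists.

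**Figure D5:**
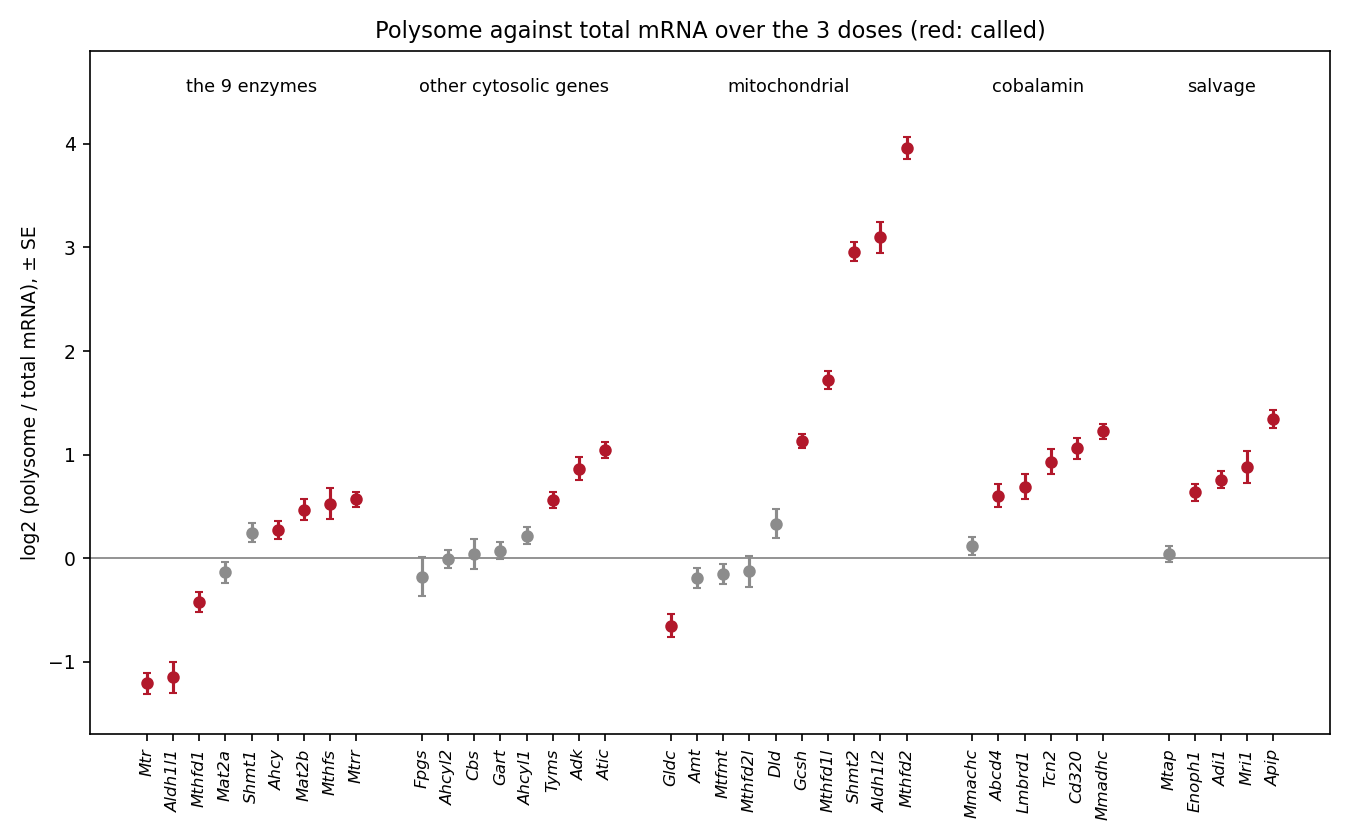
Log2 difference of polysome over total mRNA over the 3 doses (vertical axis, ± SE, n = 6 libraries per fraction) for the 9 enzymes and for 4 lists of neighbouring genes, ordered within each list; red points were called. Mtr at -1.21 is the lowest gene shown and Mthfd2 at 3.96 the highest.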

How the data were processed

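Polysome and total mRNA of NSCs at 3 folic acid doses was sequenced in 2 replicates each (paired-end reads). Per the labels and methods, the authors trimmed the reads, aligned them to mm10 with Bowtie2 2.2.9 and deposited RSEM 1.3.0 gene tables, from which 2 columns were used: the expected counts, which RSEM estimates by sharing out reads that match several genes and which are not scaled for depth, and the TPM values, in which the authors' pipeline divided by gene length and scaled each library to a fixed sum. RSEM's sharing can move counts between near-identical genes such as Mthfs and Mthfsl. Gene symbols came from GENCODE M21, which matched 42548 of 43432 identifiers.

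Expected counts were rounded and tested in R 4.3.3 with edgeR 4.0.16 (TMM scaling, filterByExpr, robust quasi-likelihood test, Benjamini-Hochberg over all genes). Dose comparisons used the 6 libraries of a fraction (13433 genes for polysome and 13912 for total mRNA), and translation efficiency and polysome against total mRNA used 1 fit of 12 libraries (14421 genes). Calls needed a fold above 1.2 and an adjusted p below 0.05. SE was taken from the F statistic, and 95% intervals from the t distribution of the fit. TPM values were used for levels between genes. Log2 CPM values had a pseudocount of 0.5. Intervals cover the spread between libraries, and counts below about 100 (Mthfs) carry most counting error. For each gene the GENCODE transcript with the best APPRIS and support level gave the leader, coding and 3′ regions. Start contexts, upstream ATGs and motifs were read from it by position.

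All 9 enzymes are named, other pathway lists are given by counts with the called and extreme genes, and the gene most like each member is the one with the highest r among genes with a mean log2 CPM of 0 or more. The enzymes and lists were chosen with earlier results of these data known. Some genes of the list of other cytosolic genes are not reported here and are left out of its counts. Alternatives were RLE scaling, DESeq2 1.42.0, no filter, only the compared libraries, a replicate block and leaving out each library. Summing Mthfs and Mthfsl was chosen after seeing the data. Same-numbered replicates did not deviate together (correlations between -0.11 and 0.094), so the numbers were not used as pairs. The tests were tested on simulated data. Protein sequences were not used here.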

Additional observations from a re-analysis of the deposited data

How the results depend on the processing

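Over the 3 doses, the polysome against total mRNA differences of Mtr, Aldh1l1, Mthfd1, Mtrr, Mat2b and Mthfs kept their direction and were called in all alternatives run, with Mtr between -1.28 and -1.11 and Mtrr between 0.55 and 0.64. Ahcy was called in 13 and Shmt1 in 6 of 16 alternatives. Of 1669 values of single enzymes under an alternative, 63 became calls, 23 lost theirs, 1 turned its direction, and 69 changed sign while uncalled and within 2 SE of 0. The turned value was Mat2a in polysome against total mRNA at LF, which with 1 library left out ran between -0.27 (without polysome LF replicate 2) and 0.26 (without polysome LF replicate 1).

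In total mRNA, Aldh1l1 made the number of enzymes called 1 in place of 0: for HF against LF with DESeq2, and for LF against MF, HF against MF and HF against LF without a filter on low counts. Of all genes, DESeq2 then called 173, and the fit without the filter called 50, 99 and 421 in that order. Without the filter the count at MF, polysome against total, was 5 in place of 3, with 7908 of all genes called in place of 7962. With only the libraries compared, that count was 8, with 9858 of all genes called. At LF it was then 3 in place of 5, with 3420 of all genes called in place of 7724. The replicate block, used although the numbers did not pair the samples, gave 1 enzyme (Aldh1l1) in each of the 3 total mRNA comparisons. The edgeR adjusted p was 0.00757, 0.0183 and 1.03e-08 for LF against MF, HF against MF and HF against LF. The SE was 0.063, 0.061 and 0.062, where the main fit had 0.148, 0.144 and 0.145. Of all genes, 36, 87 and 365 were called. For polysome against total at MF the block gave 5 enzymes and 7894 of all genes. The block moved no other count by over 1.5 times. The cause of these moves was not tested.

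With 1 library left out in turn, where a lone library is assumed to vary like the others, the number of enzymes called ran between 0 and 1 for total mRNA (HF against MF and HF against LF), between 0 and 5 (LF against MF), 0 and 1 (HF against MF) and 0 and 2 (HF against LF) for polysome mRNA, between 0 and 5 (LF against MF) and 0 and 1 (HF against LF) for translation efficiency, and between 1 and 8 for polysome against total at MF. The counts of 5 came without polysome LF replicate 1, when the LF polysome group was the library that stood apart, and 6987 and 6853 genes in all were called. The highest count at MF came without either polysome LF replicate, and the lowest without total MF replicate 2 or polysome MF replicate 1. The calls over all genes at MF moved the same way in these fits, so the range is not particular to the enzymes.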
